A study of Gallus gallus with 88 samples.

Results

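The chicken gene array used here carried 402 probe sets whose annotation names exactly 1 microRNA gene, that is a symbol beginning with MIR and a number or with MIRLET7. They represented 392 genes, and 10 of these genes had 2 probe sets each. They were taken from 20706 probe sets that were tested, which name 11528 genes in all, and were chosen by symbol. This choice, and that of MIR125B2 by name, was made with earlier results of these data known. For 7 of the 10 genes with 2 probe sets both held equal values on every array, so that 395 probe sets carried values of their own. A further 23 probe sets that name a microRNA together with another gene were not counted.

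MicroRNAs are short RNAs that bind messenger RNAs and lower their translation or stability. They are cut from longer transcripts: a primary transcript, which may be a transcript of the microRNA's own or the intron of a host gene, is trimmed in the nucleus to a hairpin, and the hairpin is cut in the cytoplasm to the mature strand. In skeletal muscle the miR-1, miR-133 and miR-206 families are known for their part in myoblast differentiation and growth, and miR-125b is known from mouse muscle as a brake on myoblast differentiation through insulin-like growth factor 2. The array labelled copies of long RNA and its probe sets read the precursor or the transcript that holds it, so none of the values below measures a mature microRNA.

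The samples were taken from the breast muscle, Musculus pectoralis major, of broilers, chickens bred for meat, with 1 array for each of 88 animals. Eggs were kept at 37.8 °C throughout, or were held at 38.8 or 36.8 °C during 1 interval and at 37.8 °C otherwise. At embryonic day 10 (ED10) there were 8 embryos treated at 38.8 °C from ED7, 8 treated at 36.8 °C from ED7 and 8 controls at 37.8 °C. At embryonic day 13 (ED13) there were 8 embryos treated at 38.8 °C from ED10, 8 treated at 36.8 °C from ED10 and 8 controls. At day 35 after hatching (D35) there were 8 birds from each of 4 treatments, 38.8 °C or 36.8 °C during ED7 to ED10 and 38.8 °C or 36.8 °C during ED10 to ED13, and 8 control birds. The titles of the D35 controls carry 1 interval or the other, in unequal numbers, and these 8 birds were taken as 1 control group. The labels give no sex. Whole muscle was measured, so fewer cells of a type and less RNA per cell cannot be told apart.

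Some features of the arrays touch several results. In the list of titles the 38.8 °C arrays of an age stand in a first run with 4 of its control arrays, and the 36.8 °C arrays stand in a second run with the other 4 controls. The labels do not say what the runs are. Several temperature results are therefore also given with the run as a term, that is against the 4 controls of the same run. Array medians were 7.56 to 8.13 on the log2 scale in embryos and 6.32 to 6.76 at D35, so embryonic and post-hatch levels are compared only by their rank within each set. At D35, replicate 11 of the group held at 38.8 °C during ED7 to ED10 stood apart, with 873 probe sets listed at 0, among them 60 microRNA probe sets. No microRNA probe set was called at D35 with or without it, and counts at an unadjusted p that moved without it are given below. All values are log2 signals, and a change of 1 on this scale is a doubling of signal.

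MicroRNA probe sets read low. In the embryos their median level was 6.17 (quartiles 4.85 and 7.35), against 7.86 for all 20706 probe sets. Of the 402, 64 (15.9%) lay above the median of all probe sets, 222 (55.2%) lay in the lowest 25% and 2 lay in the top 10%. At D35 the median was 4.47, against 6.47 for all, with 58 (14.4%) above the overall median, 242 (60.2%) in the lowest 25% and 6 in the top 10%. The 244 probe sets of microRNAs with later registry numbers, MIR1329 and above, had an embryonic median of 6.68, and the 158 with earlier numbers, together with let-7, had 5.33. The well known microRNA families therefore sat mostly among the dim probe sets of this array.

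Spread and zeros were larger as well. The median standard deviation within a group was 0.31 for microRNA probe sets and 0.25 for all probe sets in embryos, and 0.52 and 0.34 at D35. Values of exactly 0 made up 0.897% of the microRNA values in embryos, against 0.370% of all values, and 6.19% at D35, against 1.63%. In all, 24 microRNA probe sets were at 0 on at least 1 embryonic array and 136 on at least 1 array of D35.

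**Figure D1:**
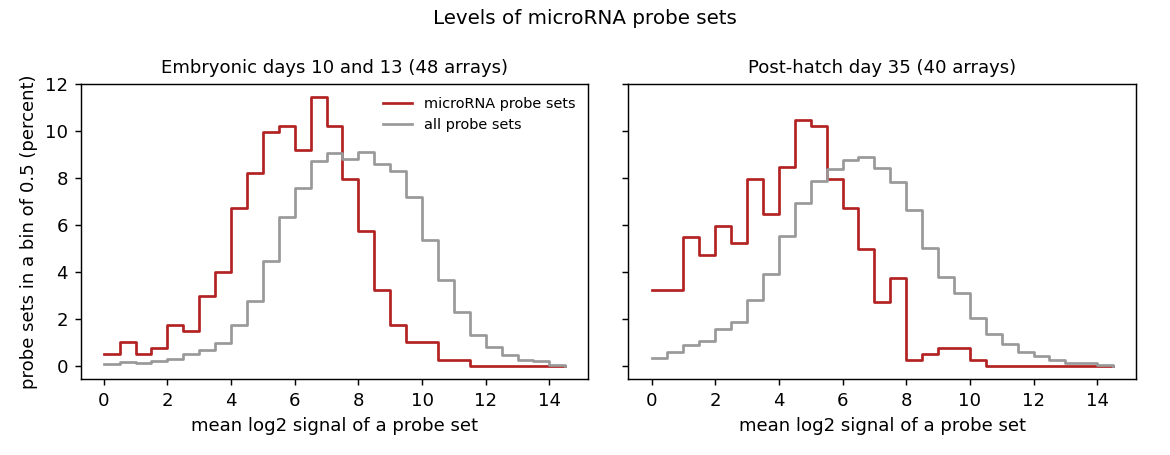
Share of probe sets (percent, y axis) by mean log2 signal in bins of 0.5 (x axis), for the 402 microRNA probe sets and for all 20706, over 48 embryonic arrays on the left and 40 post-hatch arrays on the right. The microRNA probe sets lie to the left of all probe sets in both panels, with medians of 6.17 and 4.47 against 7.86 and 6.47.

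The brightest microRNA probe sets in embryos were MIR1653 at 11.09, which lies inside LPP, a gene of focal adhesions, MIR1648 at 10.85 and MIR1635 at 10.38, inside the transcriptional regulator SKI. MIR1653 was steady across the embryonic groups: the lowest array read 10.86 and the highest 11.44. At D35 the brightest were MIR1653 at 10.08, MIR1582 at 9.92, inside the membrane-bending gene BIN1, and MIR1648 at 9.76. The dimmest in embryos were MIR367 at 0.45, a microRNA of pluripotent cells that was at 0 on 24 embryonic arrays, MIR1761 at 0.50 and MIR1599 at 0.51. At D35 the dimmest were MIR1761 at 0.05, MIR367 at 0.12 and MIR20A at 0.13, a member of the growth-related miR-17 cluster.

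The largest spread within embryonic groups belonged to MIR1580 (SD 1.38), MIR144 (1.29), which is made in red blood cells, and MIR133A2 (1.13). At D35 it belonged to MIR1790 (1.82), MIR1580 (1.61) and MIR1699 (1.52). These are the probe sets for which a difference between groups of 8 is least well measured.

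The change over 3 days of development was the broadest difference. In control embryos 47 microRNA probe sets (11.7%) were higher at ED13 than at ED10 and 26 (6.47%) were lower (limma, Benjamini-Hochberg adjusted p under 0.05 over all probe sets). Over all probe sets 9.65% were higher and 17.2% lower. In embryos treated at 38.8 °C 45 (11.2%) were higher and 21 (5.22%) lower, against 8.4% and 14.4% of all. In embryos treated at 36.8 °C 46 (11.4%) were higher and 18 (4.48%) lower, against 14.4% and 12.1% of all. The median change of the microRNA probe sets was 0.03 in controls, 0.04 at 38.8 °C and 0.04 at 36.8 °C, and that of all probe sets was -0.02, -0.04 and 0.02. Among all probe sets of controls calls were split towards lower, and among microRNA probe sets towards higher; at 36.8 °C both were split towards higher. After quantile normalization the 36.8 °C calls were 41 higher and 30 lower among microRNA probe sets and 2967 higher and 3359 lower among all, so that the split of all probe sets turned towards lower. That setting gave 36.8 °C medians of -0.03 for both and a 38.8 °C median of 0.08 for microRNA probe sets. These shares were compared by count, with no test of the difference. Each age had its own treatment interval, so in treated embryos age and interval cannot be told apart.

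Because dim probe sets pass a test less often, the control counts were also read by quartile of signal, from the dimmest 25% to the brightest. In the lowest quartile 12 of 222 microRNA probe sets (5.41%) were higher and 14 (6.31%) lower, against 4.50% and 4.64% of all probe sets of that quartile. In the second quartile 24 (20.7%) were higher and 5 (4.31%) lower, against 7.63% and 13.5% of all. In the third quartile 9 of 51 (17.6%) were higher and 5 (9.80%) lower, against 11.3% and 22.4% of all. In the top quartile 2 of 13 (15.4%) were higher, against 15.1% of all. In controls the share of higher calls was thus above that of all probe sets in both middle quartiles. At 36.8 °C it was not so in the third quartile, with 6 of 51 (11.8%) higher, against 17.8% of all, or in the top quartile, with 23.1% against 23.3%. By name, 26 of the 244 later-numbered microRNA probe sets were higher and 17 lower, and 21 of the 158 others were higher and 9 lower.

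At all 3 temperatures 28 probe sets of 27 genes were higher at ED13 and 7 were lower, and no probe set was called in opposite directions at different temperatures. These 35 were 47.9% of those called in controls, 53% of those called at 38.8 °C and 54.7% of those called at 36.8 °C. In all, 112 probe sets passed at 1 temperature or more. The 3 comparisons use different animals. The same overlap was not counted over all probe sets, so it is not read as particular to microRNA genes.

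**Figure D2:**
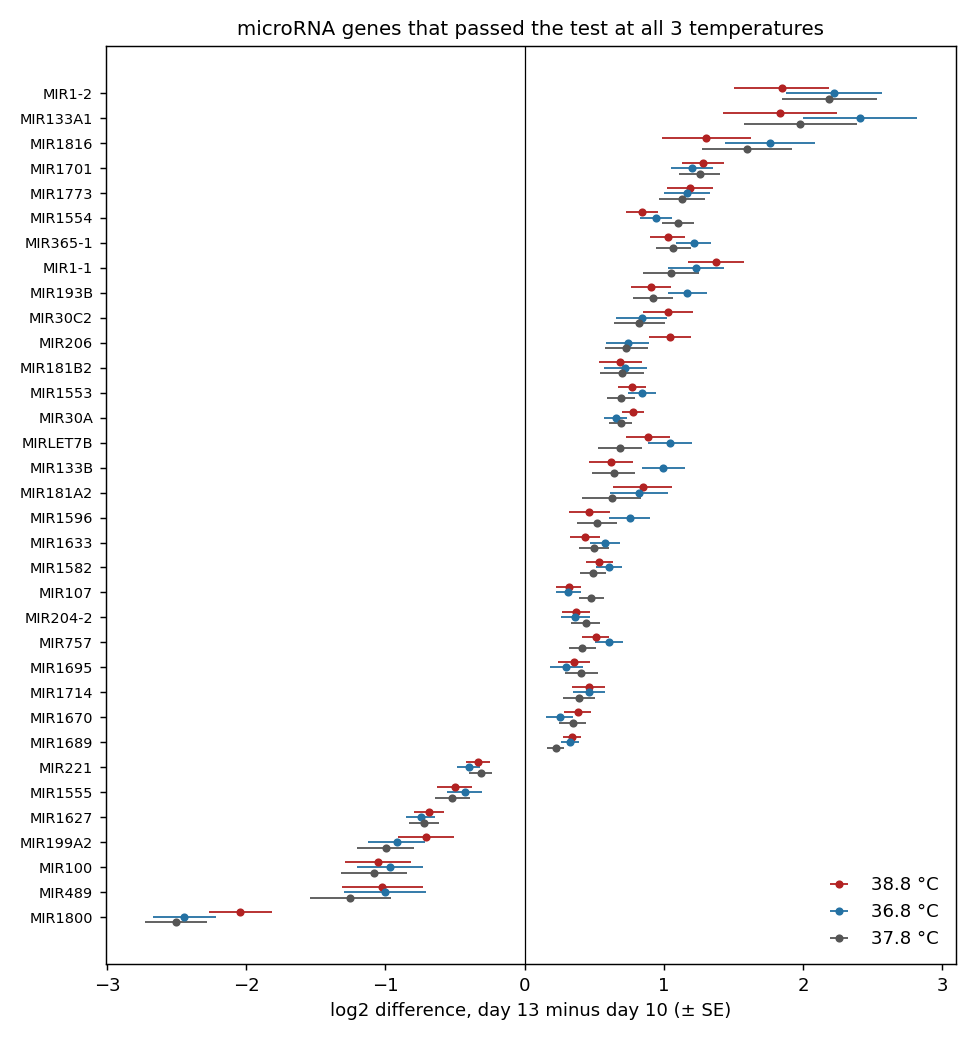
Log2 difference of ED13 minus ED10 (x axis, bars ± SE, 8 embryos a group) for the 34 genes that passed the test at 38.8, 36.8 and 37.8 °C. The 27 genes above 0 run down to MIR1689, the 7 genes below 0 end with MIR1800 at -2.51 in controls, and the 3 points of a gene lie on the same side of 0 in each row.

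The largest rises in controls among the called probe sets were those of 2 muscle microRNA genes, MIR1-2 and MIR133A1. MIR1-2, a gene for miR-1, read 5.32, 5.87 and 7.08 (lowest, median and highest of 8) in ED13 controls, against 1.74, 4.12 and 5.36 in ED10 controls. Only the highest ED10 array reached the level of the lowest ED13 arrays. The difference was 2.19 ± 0.34 (SE, limma, adjusted p = 1.97e-06), with 1.85 at 38.8 °C and 2.22 at 36.8 °C. Its neighbour MIR133A1, a gene for miR-133a in the same transcript region, read 6.34, 6.73 and 7.89 in ED13 controls, against 1.60, 5.38 and 6.26 in ED10 controls, and those groups did not overlap. It was higher by 1.98 ± 0.41 in controls (limma, adjusted p = 0.000174), by 1.83 at 38.8 °C and by 2.41 at 36.8 °C. Leaving out 1 control at a time gave 1.51 to 2.17 for MIR133A1, and all 16 such fits kept the call.

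The other copy of this pair lies on chromosome 20. MIR1-1 read 6.71, 7.55 and 7.96 in ED13 controls, against 5.92, 6.45 and 6.84 in ED10 controls. It was higher by 1.05 ± 0.20 in controls (limma, adjusted p = 6.84e-05), by 1.38 at 38.8 °C and by 1.23 at 36.8 °C, and the ranges of the control groups overlapped at 1 end. MIR133A2 beside it was near the floor, at 2.83, 3.39 and 4.16 in ED13 controls, against 0, 3.23 and 4.06 in ED10 controls. It passed at 36.8 °C (1.62 ± 0.55, limma, adjusted p = 0.0246) and not in controls (0.99 ± 0.55, adjusted p = 0.197) or at 38.8 °C (0.67, adjusted p = 0.445).

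MIR206 and MIR133B, which lie together on chromosome 3, were brighter; miR-206 is known as a microRNA of skeletal muscle and not of heart. MIR206 read 8.71, 9.13 and 9.61 in ED13 controls, against 7.91, 8.51 and 8.67 in ED10 controls, with every ED13 control above every ED10 control. The difference was 0.73 ± 0.15 (limma, adjusted p = 0.000205), with 1.05 at 38.8 °C and 0.74 at 36.8 °C. MIR133B read 7.32, 7.78 and 8.20 in ED13 controls, against 6.64, 7.09 and 7.86 in ED10 controls, and the groups overlapped. It was higher by 0.64 ± 0.16 in controls (limma, adjusted p = 0.0014), by 0.62 at 38.8 °C and by 1.0 at 36.8 °C.

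The remaining muscle microRNAs did not pass in controls. MIR1B changed by -0.17, MIR1C by -0.03, MIR133C by 0.53 and MIR499A, inside the slow myosin gene MYH7B, by 0.12, with limma adjusted p of 0.653, 0.904, 0.446 and 0.759. MIR133C and MIR499A averaged 2.38 and 3.35 over the embryonic arrays, in the lowest 0.792% and 1.84% of all probe sets. Of the 10 muscle microRNA genes measured, 5 were higher in controls, 5 at 38.8 °C and 6 at 36.8 °C, and none was lower. Over all probe sets 9.65%, 8.4% and 14.4% were higher, in that order. The called genes are neighbours (MIR1-2 with MIR133A1, MIR1-1 with MIR133A2, MIR206 with MIR133B) and are not independent. The median change of the 10 was 0.68 in controls, against -0.02 for all probe sets.

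**Figure D3:**
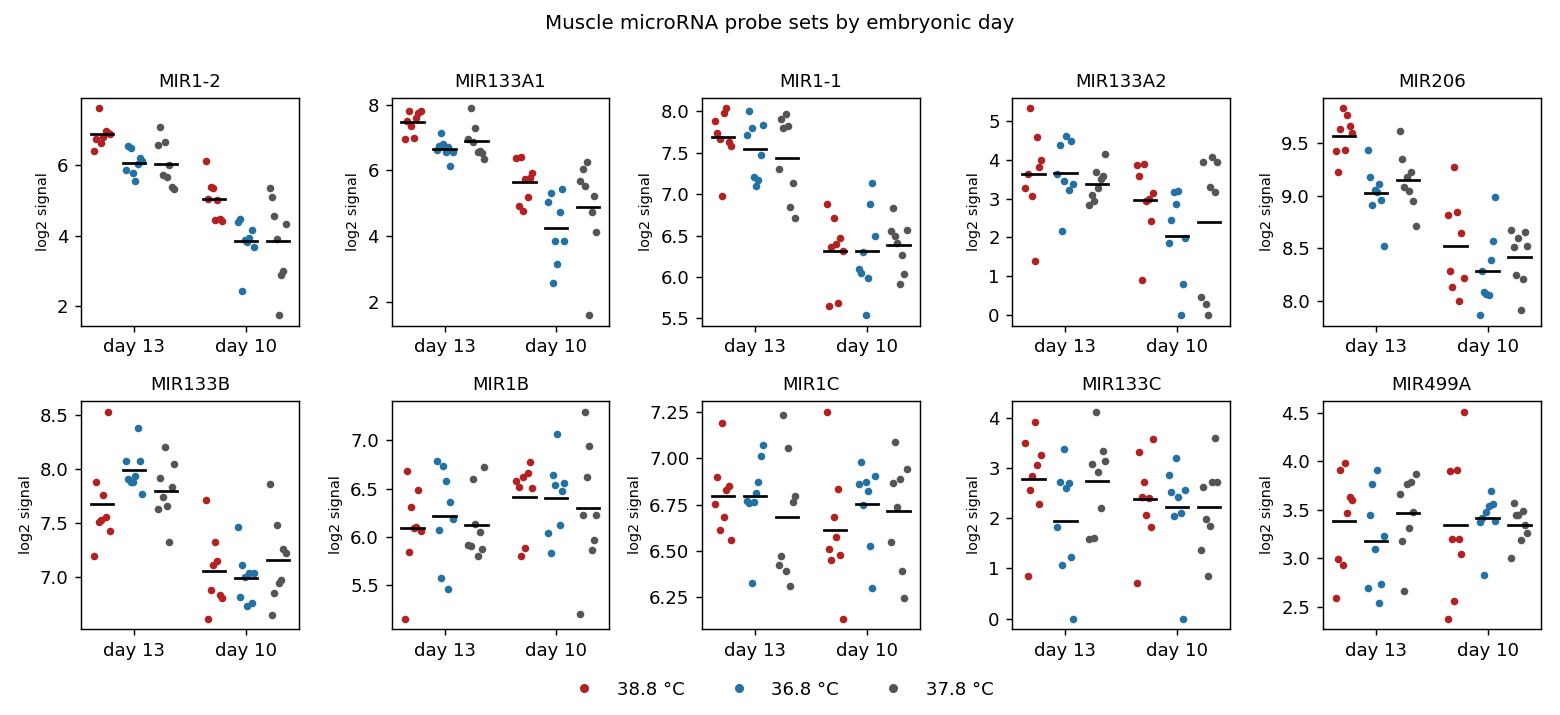
Log2 signal (y axis) of 10 muscle microRNA probe sets in the 48 embryos, by day and incubation temperature, with each point 1 embryo and each line a group mean of 8. MIR1-2, MIR133A1, MIR1-1, MIR206 and MIR133B are higher at ED13 in all 3 temperature groups, while MIR1B, MIR1C, MIR133C and MIR499A show no such step.

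Markers of the tissue moved with age as well. Of 12 measured marker genes of muscle 11 were higher at ED13 in controls, against 9.65% of all probe sets. The summed level of the 12 was 15.15 to 15.39 in ED13 controls, against 14.33 to 14.81 in ED10 controls. Of 9 measured markers of cartilage 8 were lower, against 17.2% of all probe sets. The median change of the 9 was -2.29, and their summed level was 11.65 to 12.04 in ED13 controls, against 12.71 to 13.84 in ED10 controls. None of these markers was at 0 on any of these arrays. The single cartilage microRNA, MIR140, changed by -0.01. The part of tissue composition in the age changes of the microRNA probe sets was not tested.

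Levels at D35 are ranked against the other probe sets of those arrays. MIR206 averaged 8.83 in embryos, above 67.1% of all probe sets, and 3.19 at D35, above 7.30%. MIR133A1 ran the other way, above 17.8% in embryos and 51.6% at D35, and so did MIR1-2, above 9.63% and 27%. MIR133B stood above 42.5% and 26.9%, and MIR1-1 above 33.6% and 27.7%. The order of the muscle microRNA probe sets therefore differed between the embryonic and the post-hatch arrays, a description with no test.

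The let-7, miR-99, miR-100 and miR-125 genes are often found in shared clusters; let-7 is a regulator of developmental timing. The cluster of MIR100 and MIRLET7A2 on chromosome 24 was lower at ED13. MIR100 read 4.33, 5.18 and 5.96 in ED13 controls, against 5.20, 6.51 and 6.81 in ED10 controls, which overlapped. It fell by 1.08 ± 0.24 in controls (limma, adjusted p = 0.000402), by 1.05 at 38.8 °C and by 0.97 at 36.8 °C. At D35 it was at 0 on 14 of 40 arrays. MIRLET7A2 read 1.59, 3.56 and 4.05 in ED13 controls, against 3.49, 4.85 and 5.21 in ED10 controls, and its change was -1.39 ± 0.49 in controls (limma, adjusted p = 0.0277), -1.2 at 38.8 °C (adjusted p = 0.0713) and -0.31 at 36.8 °C (adjusted p = 0.714). On replicate 57 of the ED10 embryos at 36.8 °C it read 0.03, and on the other 7 it read 4.26 to 5.28. Without that array its change was -0.89 at 36.8 °C (limma, adjusted p = 0.0882) and, with the smaller spread, -1.2 at 38.8 °C passed (adjusted p = 0.0135). Its control groups overlapped, and 3 of 16 fits that left out 1 control lost the call.

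Other let-7 genes went up: MIRLET7E by 0.79 ± 0.22, MIRLET7B by 0.69 ± 0.16 and MIRLET7D by 0.38 ± 0.15 in controls. Of 11 let-7 genes 3 were thus higher and 1 lower in controls, against 9.65% and 17.2% of all probe sets. The median change of the 11 was -0.11. MIRLET7B, inside PPARA, a nuclear receptor of fat metabolism, also passed at 38.8 °C (0.89) and 36.8 °C (1.04). MIRLET7E and MIRLET7D passed at 36.8 °C (0.86 and 0.53, limma, adjusted p = 0.0024 and 0.0047). At 38.8 °C these did not pass (0.41 and 0.12, adjusted p = 0.188 and 0.626). MIRLET7I was lower at ED13 at 36.8 °C (-0.27, adjusted p = 0.0177) and MIRLET7F2 at 38.8 °C (-0.58, adjusted p = 0.0477). The family did not move in 1 direction.

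MIR1800 showed the largest fall of all microRNA probe sets in controls. It read 6.47, 6.97 and 7.45 in ED13 controls, against 8.77, 9.43 and 10.17 in ED10 controls, with a gap between the groups. It fell by 2.51 ± 0.23 (limma, adjusted p = 4.46e-12), and by 2.04 at 38.8 °C and 2.44 at 36.8 °C. MIR489, which is known from mouse as a microRNA of quiescent muscle stem cells, read 1.81, 4.55 and 4.92 in ED13 controls, against 4.82, 5.42 and 6.29 in ED10 controls. It fell by 1.25 ± 0.29 in controls (limma, adjusted p = 0.000841), by 1.02 at 38.8 °C and by 1.0 at 36.8 °C. The groups overlapped, and the ED13 controls other than the lowest read 4.20 to 4.92. MIR199A2, a microRNA of mesenchymal tissue, fell by 1.0 ± 0.20, MIR1627 by 0.73, MIR1555 by 0.52 and MIR221, known as a promoter of cell cycling, by 0.32 in controls, and these 4 also fell at both other temperatures.

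Rising microRNAs outside the muscle families included MIR1816 (1.60 ± 0.32), MIR1701 (1.26 ± 0.15), MIR1773 (1.13 ± 0.17), MIR1554 (1.1 ± 0.11) and MIR365-1 (1.07 ± 0.13), each past the test at all 3 temperatures. MIR1701 read 7.74, 7.94 and 8.51 in ED13 controls, against 6.56, 6.83 and 6.97 in ED10 controls, with no overlap. MIR1773, which lies between MIR1-1 and MIR133A2 and is 1 of the brightest microRNA probe sets, read 10.54, 10.69 and 10.86 in ED13 controls, against 9.02, 9.52 and 10.26 in ED10 controls, again with no overlap. MIR1554 read 7.13, 7.26 and 7.61 in ED13 controls, against 5.53, 6.26 and 6.64 in ED10 controls, and MIR365-1 read 6.92, 7.07 and 7.23, against 5.63, 6.03 and 6.30. Neither of these overlapped between the ages. MIR1816 overlapped, at 4.88, 5.47 and 6.12 in ED13 controls, against 2.40, 3.84 and 5.06 in ED10 controls.

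Several families rose in part, where 9.65% of all probe sets were higher in controls. Of the miR-193 and miR-365 genes 2 of 4 were higher in controls (MIR365-1, and MIR193B by 0.92 ± 0.14); they lie in 1 cluster, known from mouse for brown fat differentiation. Of the miR-30 genes 2 of 6 were higher, MIR30C2 by 0.82 ± 0.18 and MIR30A by 0.69 ± 0.08. Of the miR-181 genes, which are known to rise in differentiating mouse myoblasts, 2 of 4 were higher, MIR181B2 by 0.70 ± 0.16 and MIR181A2 by 0.62 ± 0.21. MIR34A, a target of p53, was higher by 0.62 ± 0.15, as 1 of 6 miR-34 and miR-449 genes. All 9 genes of the miR-17 cluster and its paralogue, which are linked to proliferation, had negative changes in controls (median -0.35), but only MIR19B1 passed (-0.36 ± 0.12, limma, adjusted p = 0.025). The blood cell, endothelial, miR-302, HOX cluster and nervous system lists had no member past the test in controls; at an unadjusted p under 0.05 they had 0, 0, 0, 0 and 1.

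Some probe sets passed at 1 treatment temperature. MIR1463 was higher at ED13 at 36.8 °C (1.55 ± 0.32, limma, adjusted p = 0.000152) and gave 0.80 at 38.8 °C and 0.20 in controls, while MIR1632 was higher at 36.8 °C by 1.18 ± 0.34, against 0.65 at 38.8 °C and 0.37 in controls. MIR29B1, known as an inhibitor of collagen genes, fell by 1.21 ± 0.38 at 38.8 °C (adjusted p = 0.0166), where 36.8 °C gave -0.09 and controls gave -0.97. Whether the age change differed between treated embryos and controls was tested directly for each treatment. No microRNA probe set passed (0% of all probe sets in either test, limma). Because the treatment interval differed between the ages, this test cannot separate age from interval. At an unadjusted p under 0.05 there were 12 microRNA probe sets (2.99%) for 38.8 °C, against 3.88% of all, and 11 (2.74%) for 36.8 °C, against 2.95% of all. Those with the smallest p were MIR1635 (0.30), MIR1764 (0.30) and MIR1416 (-0.33) for 38.8 °C, and MIR1463 (1.35), MIR1707 (0.63) and MIR146A (-0.47) for 36.8 °C.

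Neighbouring microRNA genes moved alike where both moved. The 392 genes formed 39 clusters of 93 genes that lie within 10000 bases of each other. In controls 7 clusters had at least 2 called genes, 9 had 1, and none had calls in both directions. The rising clusters were MIR1-1 with MIR1773, MIR1-2 with MIR133A1, MIR206 with MIR133B, MIR193B with MIR365-1 and MIR181A2 with MIR181B2. The falling ones were MIR100 with MIRLET7A2, and MIR301A with MIR454. Members of a cluster may share a primary transcript and are not independent.

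The genes that contain a microRNA were compared where the array measured them. By the chicken assembly GRCg7b 286 of the 392 genes lie inside a protein-coding gene, 47 inside another gene only and 59 in none; the strand was not given, so a containing gene need not be the host transcript. For 212 microRNA genes a probe set of the containing gene was measured, and 35 of these passed the age test in controls. For 16 of the 35 the containing gene passed in the same direction, for 4 in the opposite direction and for 15 it did not pass. Containing genes passed for 57.1% of called microRNAs, against 47.6% of the 212. The corresponding counts were 20, 4 and 9 of 33 at 38.8 °C (72.7% of called, against 40.6% of the 212) and 18, 3 and 14 of 35 at 36.8 °C (60% against 46.7%).

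Pairs with the same sign included several of the largest changes. MIR1800 and UNC79, a subunit of a sodium leak channel complex, fell by 2.51 and 2.14 in controls, MIR489 and the calcitonin receptor gene CALCR by 1.25 and 1.86, and MIR3531 and the syndecan gene SDC3 by 1.07 and 1.61. MIR1816 and the GABA receptor gene GABBR2 rose by 1.60 and 1.56, and MIR1701 and C4H4ORF50 by 1.26 and 2.15. Against these, MIR1-2 and MIR133A1 rose by 2.19 and 1.98 while MIB1, the ubiquitin ligase gene around them, fell by 0.32 ± 0.09. MIR1688 rose by 0.34 and its containing gene AP3B2 fell by 1.08, and MIR1554 rose by 1.1 where LMF1 gave -0.08 (limma, adjusted p = 0.534). MIR1-2 and MIR133A1 thus had the opposite sign to the gene around them, while MIR1800, MIR489, MIR3531, MIR1816 and MIR1701 had the same sign.

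**Figure D4:**
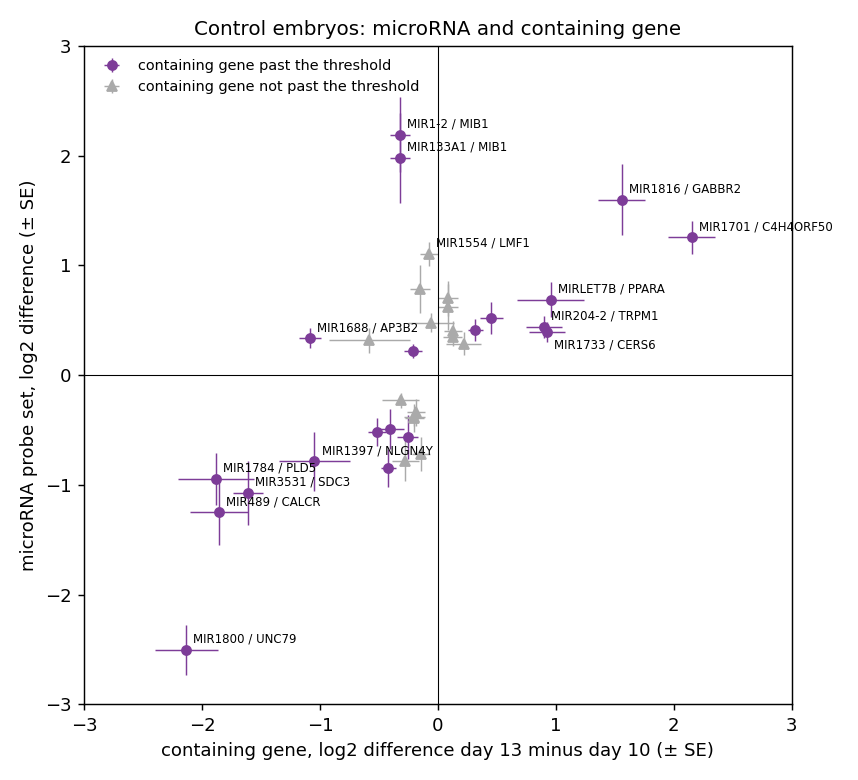
Log2 difference of ED13 minus ED10 in control embryos for microRNA probe sets that passed the test (y axis) against that of the gene containing them (x axis), with bars of ± SE and 8 embryos per day. MIR1800 with UNC79 stands at the lower left, MIR1816 with GABBR2 and MIR1701 with C4H4ORF50 at the upper right, and MIR1-2 and MIR133A1 above a slightly lower MIB1.

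Genes of the microRNA processing machinery were measured beside them. Of 21, 7 were lower in controls and none was higher, where 17.2% of all probe sets were lower and 9.65% higher. Their median change was -0.12, against -0.02 for all probe sets. At 38.8 °C 9 were lower and none higher, against 14.4% and 8.4% of all. At 36.8 °C 5 were lower and 4 higher, against 12.1% and 14.4% of all. Those lower in controls were the Argonaute genes AGO1 (-0.31) and AGO3 (-0.47), whose proteins hold the mature strand, the exporter XPO5 (-0.38) with its partner RAN (-0.24), the helicases DDX5 (-0.31) and DDX17 (-0.19), and ZC3H7B (-0.19). The nuclear enzyme gene DROSHA (-0.11), its partner DGCR8 (0.28) and the cytoplasmic enzyme gene DICER1 (0.33) did not pass.

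Temperature left few calls. At ED10 no microRNA probe set differed between 38.8 °C and 37.8 °C (limma; 0% of all probe sets), and 27 (6.72%) had an unadjusted p under 0.05, against 6.29% of all. Without replicate 9 of the 38.8 °C group, which had the lowest correlation with the other arrays of its age (median 0.904), these were 15 (3.73%) and 3.49%. The smallest p belonged to MIR1416, which lies inside MAMDC2 on chromosome Z: 7.40, 7.64 and 8.24 at 38.8 °C, against 6.93, 7.23 and 7.59 at 37.8 °C, a difference of 0.45 ± 0.11 (adjusted p = 0.628). Next were MIR126, an endothelial microRNA inside EGFL7, at 5.62, 6.06 and 6.80, against 4.99, 5.35 and 6.19 at 37.8 °C (0.65 ± 0.18), and MIR1726 (-0.54 ± 0.15). The ranges of MIR1416 and MIR126 overlapped between the groups. Since the labels give no sex, the part of sex in any difference of MIR1416, on chromosome Z, was not tested. With the run of titles as a term 9 microRNA probe sets (2.24%) had an unadjusted p under 0.05, against 2.15% of all.

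Between 36.8 °C and 37.8 °C at ED10 none passed either (limma; 0% of all), with 10 microRNA probe sets (2.49%) at an unadjusted p under 0.05, against 2.36% of all. MIR7B had the smallest p, at 1.42, 2.96 and 5.12 at 36.8 °C, against 3.57, 4.82 and 5.87 at 37.8 °C (-1.58 ± 0.48), followed by MIR1453 (0.24) and MIR1463 (-0.98), each with an adjusted p of 1. Between 38.8 °C and 36.8 °C none of the 402 passed, while 0.0338% of all probe sets did, and 81 (20.1%) had an unadjusted p under 0.05, against 24.4% of all. Without replicate 57 of the 36.8 °C group these were 51 (12.7%) and 18.6%. MIR1416 (0.55, limma, adjusted p = 0.062), MIR15B (0.75, adjusted p = 0.090) and MIR125B2 (0.82 ± 0.23, adjusted p = 0.094) came closest. Set against the controls of its own run, the difference was -0.02 for MIR15B and -0.04 for MIR125B2. In that fit no probe set of the array passed between 38.8 °C and 36.8 °C. An unadjusted p under 0.05 was then found for 16 microRNA probe sets (3.98%), against 3.15% of all. For 36.8 °C against 37.8 °C it was found for 18 (4.48%), against 2.49% of all.

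At ED13, MIR125B2 was the only probe set of the array that passed between 38.8 °C and 37.8 °C (0.00483% of all probe sets). It is a gene for miR-125b on chromosome 1, in no other gene, and its level of 5.99 over the embryonic arrays was above 18.1% of all probe sets. It read 6.18, 6.31 and 6.57 at 38.8 °C, against 5.33, 5.66 and 6.13 at 37.8 °C, and every 38.8 °C embryo was above every control. The means were 6.35 ± 0.13 and 5.66 ± 0.27 (SD, n = 8 each), a difference of 0.69 ± 0.11 (SE, limma, adjusted p = 0.0292).

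The call depended on the fit. Against the 4 controls of its own run, which read 5.60 to 6.13, the difference was 0.52 ± 0.12 (limma with the run as a term, adjusted p = 0.694). Leaving out 1 embryo at a time gave 0.64 to 0.76 with limma adjusted p of 0.0026 to 0.108, and 12 of 16 such fits lost the call. Fitted with these 2 groups alone the adjusted p was 0.109, and after quantile normalization it was 0.010.

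At ED10 and at 36.8 °C the differences of MIR125B2 did not pass. At ED10 it read 6.16, 6.62 and 6.83 at 38.8 °C and 4.78, 5.71 and 6.40 at 36.8 °C, against 5.23, 6.10 and 6.79 at 37.8 °C, where the 4 controls of the first run averaged 6.56 and the 4 of the second 5.70. The differences from all controls were 0.44 (limma, adjusted p = 0.628) and -0.39 (adjusted p = 1), and within a run 38.8 °C gave 0.01 and 36.8 °C gave 0.05. At ED13 it read 5.21, 5.40 and 5.94 at 36.8 °C, a change of -0.18 from 37.8 °C (adjusted p = 0.449). The change of the 38.8 °C difference from ED10 to ED13 was 0.25 ± 0.26 (limma, adjusted p = 0.9998), so the ED13 difference was not shown to differ from that of ED10.

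With age MIR125B2 fell by 0.47 ± 0.18 in controls (limma, adjusted p = 0.048), while its change was -0.22 at 38.8 °C (adjusted p = 0.449) and -0.27 at 36.8 °C (adjusted p = 0.304). Leaving out 1 control at a time gave -0.60 to -0.38, and 11 of 16 such fits lost the call. At D35 it was dim, above 8.56% of all probe sets, at 2.30, 3.51 and 4.68 after 38.8 °C and 2.64, 3.30 and 4.06 after 36.8 °C during ED7 to ED10. After treatment during ED10 to ED13 it read 2.73, 3.76 and 4.42 for 38.8 °C and 0, 3.11 and 4.24 for 36.8 °C, and the controls read 2.57, 3.60 and 4.42. All of these groups overlapped, and none of the comparisons passed.

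**Figure D5:**
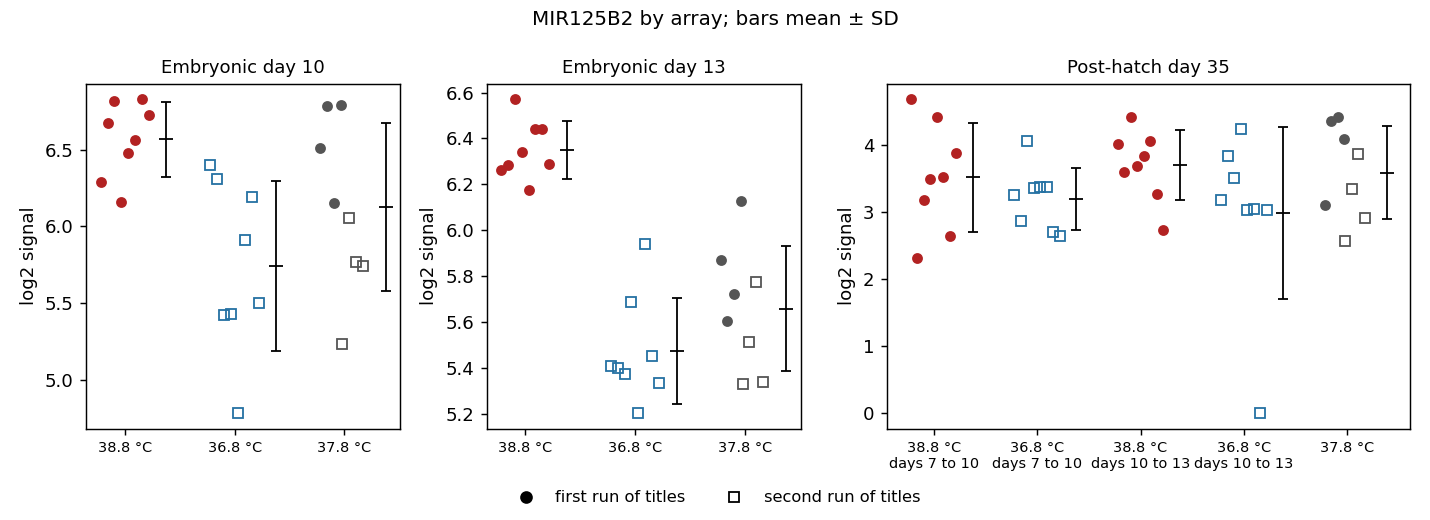
Log2 signal of MIR125B2 (y axis) on each array by incubation temperature at ED10, ED13 and D35, with bars for mean ± SD of 8 animals, and filled circles and open squares for the first and second run of titles. At ED13 the 8 embryos at 38.8 °C lie between 6.18 and 6.57, above all 8 controls, of which the open squares lie lower on average, at 5.49.

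The neighbours of MIR125B2 were set beside it. MIR99A and MIRLET7C, the nearest microRNA genes, gave 0.26 and 0.30 between 38.8 °C and 37.8 °C at ED13 (limma, adjusted p = 0.461 and 0.554). Between 38.8 °C and 36.8 °C they gave 0.40 and 0.24. The protein-coding neighbours TSTD1 and C21orf91 gave 0.45 ± 0.55 and 0.33 ± 0.09 in that contrast (limma, adjusted p = 0.699 and 0.041). Between 38.8 °C and 37.8 °C at ED13 TSTD1 gave 0.06 and C21orf91 0.13 (limma, adjusted p = 0.972 and 0.550). At ED10 between 38.8 °C and 37.8 °C MIR99A gave 0.34 and MIRLET7C 0.77 (limma, adjusted p = 0.633 and 0.628), against 0.44 for MIR125B2. Between 38.8 °C and 36.8 °C at ED10 MIR99A gave 0.73, MIRLET7C 0.80 and C21orf91 0.66 (adjusted p = 0.0978, 0.163 and 0.102), against 0.82 for MIR125B2. TSTD1 gave 0.95 ± 0.59 there (limma, adjusted p = 0.319). Of 7 measured genes reported as miR-125b targets in mammals, none passed between 38.8 °C and 37.8 °C, with 1 at an unadjusted p under 0.05. Between 38.8 °C and 36.8 °C the growth factor gene IGF2, 1 of the reported targets, was higher by 0.39, and the others are not given here. In that ED13 contrast temperature and run cannot be told apart. With the run of titles as a term 1 of the 20706 probe sets was higher at 38.8 °C.

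After MIR125B2 the smallest p between 38.8 °C and 37.8 °C at ED13 belonged to MIR15B (0.72, limma, adjusted p = 0.157), and 58 microRNA probe sets (14.4%) had an unadjusted p under 0.05, against 12.3% of all. MIR1-2 (0.83), MIR206 (0.43) and MIR133A1 (0.59) had adjusted p of 0.253, 0.275 and 0.315. With the run of titles as a term 15 microRNA probe sets (3.73%) had an unadjusted p under 0.05, against 3.60% of all. Cartilage markers differed among these embryos, with a summed level of 11.75 to 13.27 at 38.8 °C and 11.73 to 11.86 at 36.8 °C, against 11.65 to 12.04 at 37.8 °C. All 9 had positive differences between 38.8 °C and 37.8 °C, and none passed the test. The probe set of bioB, a bacterial RNA used as an array control, read 7.56 to 8.05 at 38.8 °C, against 7.62 to 7.80 in the ED13 controls of the first run and 9.27 to 9.83 in those of the second. At 36.8 °C, within the second run, replicates 72 to 75 read 7.57 to 7.78, and replicates 76, 77, 79 and 83 read 9.71 to 10.07. In ED10 embryos at 36.8 °C replicates 51 and 54 read 9.76 and 9.58, and the others read 7.34 to 7.95. The run term does not separate these arrays of 1 run. ED10 controls read 7.35 to 8.00 for bioB in the first run and 6.91 to 7.75 in the second, all below the ED13 controls of the second run. The part of the cartilage markers and of bioB in the MIR125B2 difference was not tested. The part of bioB in the age changes was not tested either.

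Between 36.8 °C and 37.8 °C at ED13 no microRNA probe set passed (limma; 0.00483% of all probe sets did), and 23 (5.72%) had an unadjusted p under 0.05, against 14.2% of all. MIR1680 was closest, at 5.88, 6.34 and 6.57 at 36.8 °C, against 5.28, 5.69 and 6.14 at 37.8 °C (0.53 ± 0.14, limma, adjusted p = 0.107). With the run of titles as a term 4.23% of all probe sets and 6 of the 402 microRNA probe sets passed: MIR20A (1.2), MIR1680 (0.64) and MIR1707 (0.64) were higher at 36.8 °C, and MIR1462 (-0.34), MIR1788 (-0.35) and MIR214 (-0.33) were lower. In that fit 76 microRNA probe sets (18.9%) had an unadjusted p under 0.05, against 25.4% of all.

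The contrast between both treatments at ED13 had the most microRNA calls of the temperature comparisons. Of the 402, 10 were higher at 38.8 °C than at 36.8 °C and 2 lower, against 3.54% and 2.34% of all probe sets, so the share of higher calls, 2.49%, was below that of all. None of the 12 passed with the run of titles as a term, and since each treatment lies in a run of its own, that fit sets each against 4 controls. In that fit 1 of the 20706 probe sets was higher at 38.8 °C and 27 were lower. Temperature and run cannot be told apart in the direct comparison.

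MIR125B2 had the smallest p of the 12, with every 38.8 °C embryo above every 36.8 °C embryo (0.88 ± 0.11, limma, adjusted p = 0.000208; 0.53 with the run as a term, adjusted p = 0.139). The cell cycle microRNAs of the miR-15 and miR-16 family followed. MIR15B read 6.35, 6.88 and 7.07 at 38.8 °C and 5.54, 6.03 and 6.59 at 36.8 °C (0.76 ± 0.17, adjusted p = 0.0118), and MIR16-2 read 7.83, 8.03 and 8.26 at 38.8 °C and 7.18, 7.63 and 7.80 at 36.8 °C (0.48 ± 0.09, adjusted p = 0.00736). MIR16-2 did not overlap between the groups, while MIR15B did. Both lie inside SMC4, a condensin gene needed for chromosome condensation, which was also higher, by 0.49 ± 0.12 (limma, adjusted p = 0.0194). MIR15A, of the other cluster of this family, was higher by 0.51 ± 0.13, and gave -0.01 with the run as a term.

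Of the muscle microRNAs 3 of 10 were higher at 38.8 °C than at 36.8 °C, against 3.54% of all probe sets. MIR133A1 read 6.97, 7.54 and 7.82 at 38.8 °C and 6.14, 6.67 and 7.13 at 36.8 °C (0.81 ± 0.19, limma, adjusted p = 0.0151). MIR1-2 read 6.42, 6.85 and 7.61 at 38.8 °C and 5.54, 6.08 and 6.54 at 36.8 °C (0.81 ± 0.23, adjusted p = 0.0363), and MIR206 read 9.22, 9.62 and 9.83 at 38.8 °C and 8.52, 9.04 and 9.44 at 36.8 °C (0.54 ± 0.12, adjusted p = 0.0122). The groups overlapped at their ends for all 3. With the run as a term MIR1-2 gave -0.12 and MIR133A1 0.06. None of the 12 muscle marker genes and 1 of the 9 cartilage markers passed in this contrast, that marker being higher at 38.8 °C, and MIB1, around MIR1-2 and MIR133A1, gave -0.01.

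MIR181B2 read 7.01, 7.40 and 7.66 at 38.8 °C and 6.56, 6.82 and 7.34 at 36.8 °C (0.48 ± 0.13, limma, adjusted p = 0.0348), and MIR1597 read 8.03, 8.51 and 8.93 at 38.8 °C and 7.23, 8.00 and 8.35 at 36.8 °C (0.58 ± 0.14, adjusted p = 0.0214). MIR1597 lies inside ZNF521, a transcription factor gene, which was higher by 0.35 ± 0.09. MIR1680 was lower, at 5.25, 5.76 and 6.14 at 38.8 °C and 5.88, 6.34 and 6.57 at 36.8 °C (-0.49 ± 0.14, adjusted p = 0.0396), and overlapped. The remaining called probe sets, MIR460A (0.36) and MIR1675 (-0.21), had smaller changes. Of the 21 processing genes 3 were higher at 38.8 °C in this contrast, against 3.54% of all probe sets. They were DICER1 (0.36), the terminal uridylyl transferase gene ZCCHC11 (0.41) and TNRC6A, a partner of the Argonautes (0.16). With the run as a term 1 probe set of the array was higher, so at most 1 of these 3 kept its call.

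At D35 no microRNA probe set passed in any of 8 comparisons (limma). Against controls 0% of all probe sets passed for each of the 4 treatments. The microRNA probe sets with an unadjusted p under 0.05 numbered 43 (10.7%, against 6.40% of all) for 38.8 °C and 8 (1.99%, against 3.09%) for 36.8 °C during ED7 to ED10. They numbered 17 (4.23%, against 3.14%) for 38.8 °C and 14 (3.48%, against 6.37%) for 36.8 °C during ED10 to ED13. After 38.8 °C during ED7 to ED10 the median of the 402 was -0.14, against -0.03 for all probe sets, and 123 of 402 were positive. With quantile normalization that median was -0.02. Without replicate 11 it was -0.10, with 143 of 402 positive and 36 (8.96%) at an unadjusted p under 0.05, against 5.22% of all. Fitted with the run as a term, 38.8 °C during ED7 to ED10 gave 20 (4.98%) at that p, against 3.43% of all.

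The smallest p after 38.8 °C during ED7 to ED10 belonged to MIR222, whose 2 probe sets held equal values, at 0, 0.36 and 2.40 in treated birds, against 1.01, 2.65 and 3.56 in controls (-1.69 ± 0.39, limma, adjusted p = 0.293), followed by MIR1786 (-0.68) and MIR1761 (0.25). After 36.8 °C during ED7 to ED10 it belonged to MIR367 (0.40), MIR10A (0.82) and MIR1792 (1.17). After 38.8 °C during ED10 to ED13 it belonged to MIR302C (-0.87), MIR1771 (-0.64) and MIR1606 (-0.38), and after 36.8 °C to MIR221 (0.39), MIR1596 (-0.49) and MIR106A (-1.21). None of these 12 genes had an adjusted p below that of MIR222, whose groups overlapped. Without replicate 11 the smallest limma adjusted p of a microRNA probe set after 38.8 °C during ED7 to ED10 was 0.512.

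Between treatments at D35, 0.295% of all probe sets passed for 38.8 °C against 36.8 °C during ED7 to ED10, where 72 microRNA probe sets (17.9%) had an unadjusted p under 0.05, against 13.2% of all. Without replicate 11 of the 38.8 °C group these were 50 (12.4%) and 12.4%. The smallest p was that of MIR133B, at 2.80, 4.66 and 5.34 after 38.8 °C and 4.86, 5.38 and 6.13 after 36.8 °C (-0.94 ± 0.24, limma, adjusted p = 0.073), then MIR222 and MIR1697. Without replicate 11 no microRNA probe set had a limma adjusted p below 0.139 in this contrast, and with the run as a term none was below 0.997. During ED10 to ED13 0.256% of all passed, and 20 microRNA probe sets (4.98%) had an unadjusted p under 0.05, against 9.74% of all. They were led by MIR1416 at 4.76, 5.14 and 5.60 after 38.8 °C and 5.32, 5.65 and 5.85 after 36.8 °C (-0.46, adjusted p = 0.060), MIR126 (-0.91) and MIR1569-2 (0.52). At D35 too each temperature treatment lies in a run of its own. With the run of titles as a term no probe set of the array passed in either contrast. The counts at an unadjusted p under 0.05 were then 12 (2.99%, against 3.62% of all) for ED7 to ED10. For ED10 to ED13 they were 9 (2.24%, against 3.16%).

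Comparing the later with the earlier interval, 0.00483% of all probe sets passed at 38.8 °C and 0% at 36.8 °C, with 41 (10.2%) and 11 (2.74%) microRNA probe sets at an unadjusted p under 0.05, against 4.90% and 2.01% of all. At 38.8 °C MIR1416 (-0.38), MIR1773 (-0.71) and MIR222 (1.32) had the smallest p, and at 36.8 °C MIR1569-2 (-0.38), MIR146A (0.48) and MIR367 (-0.30). Without replicate 11 of the earlier 38.8 °C group the 38.8 °C comparison gave 31 (7.71%) at an unadjusted p under 0.05, against 4.22% of all. The comparisons that use D35 controls share those 8 birds.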

How the data were processed

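Gene expression arrays of 88 animals were analysed, 48 embryonic and 40 post-hatch. The authors deposited log2 values per probe set. The arrays were scanned with GCOS 1.1.1, per the submitters' processing notes, and how they were summarised and normalized is not given in the sources used here. Both deposited tables held identical values. The number of arrays and the signal above background limit the precision. The p-values set a difference between groups against the spread among arrays within groups, with 1 array for each animal. Control probe sets (98) were left out of 20804.

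Temperature groups were compared with limma 3.58.1 in R 4.3.3, in separate fits for ED10, ED13 and D35, with 1 mean per group. Changes with age, and their dependence on temperature, came from a further fit of all 48 embryonic arrays. Each comparison had Benjamini-Hochberg adjustment over 20706 probe sets and a threshold of 0.05. The fit was tested on simulated data. Tables and figures were made with Python 3.11.15, pandas 2.3.3 and matplotlib 3.10.9. Probe sets took their gene from the platform annotation (12300 with 1 symbol, 256 with several, 8150 with none), and containing genes and neighbours came from the RefSeq table of GRCg7b. The summed level of a marker list is the log2 of the sum of its unlogged signals.

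Named genes were MIR125B2, the muscle microRNAs, members past the threshold (at most 10 a comparison, by size), the 3 with the smallest p where none passed, and the 3 highest, lowest and most variable members. MIR460A, MIR1675, members of the families and clusters, and those changed at all 3 temperatures beyond that rule were named after their values were seen. The members and lists were chosen with earlier results of these data known. Alternatives were quantile normalization, the run of titles as a term, no dim probe sets, trend and robust variance, and the compared groups alone. Each array of the compared groups was left out in turn only for 38.8 °C against 37.8 °C at ED13 and for the age change in controls. Fits without 1 array at D35 or 1 of 2 arrays at ED10 were chosen after seeing the data.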

Additional observations from a re-analysis of the deposited data

Results flagged for a closer look

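Within groups of 8 animals, 1 array lay far from the other 7 in 25 of the 341 groups examined (7.33%), by a test of the gap over the range for which chance gives about 1 in 20. No explanation was tested. In ED10 embryos at 38.8 °C MIR1701 was 6.16 in replicate 16, against 6.72 to 7.07 in the others. In ED10 embryos at 36.8 °C replicate 55 had MIR1-2 at 2.44 (others 3.67 to 4.47) and MIR499A at 2.83 (others 3.38 to 3.70), replicate 57 had MIRLET7A2 at 0.033 (others 4.26 to 5.28) and replicate 60 had MIR133C at 0 (others 2.05 to 3.19). In ED10 controls MIR133A1 was 1.60 in replicate 63, against 4.12 to 6.26.

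In ED13 embryos at 38.8 °C replicate 28 had MIR1-1 at 6.98 (others 7.58 to 8.03), replicate 27 had MIR1-2 at 7.61 (others 6.42 to 6.98) and MIR1554 at 6.70 (others 7.18 to 7.47), and replicate 29 had MIR1816 at 4.95 (others 5.76 to 6.36). In ED13 embryos at 36.8 °C MIR1773 was 10.23 in replicate 77 (others 10.77 to 11.19) and MIR1C was 6.33 in replicate 74 (others 6.76 to 7.07). In ED13 controls MIR489 was 1.81 in replicate 91, against 4.20 to 4.92.

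At D35 after 38.8 °C during ED7 to ED10, replicate 11, the array with the most zeros, had MIR1554 at 2.75 (others 4.07 to 5.16) and MIR1701 at 2.66 (others 3.80 to 4.68). In the same group replicate 15 had MIR16-2 at 4.18 (others 5.36 to 6.04), and replicate 66 had MIR499A at 0.319 (others 1.43 to 2.25) and MIR7B at 2.53 (others 0 to 0.050). After 36.8 °C during ED7 to ED10 MIR133A2 was 0 on 1 array (others 1.89 to 3.56) and MIR1773 was 9.83 in replicate 76 (others 8.94 to 9.34). After 38.8 °C during ED10 to ED13 MIR1653 was 9.32 in replicate 43 (others 9.87 to 10.25) and MIR365-1 was 5.24 in replicate 39 (others 4.53 to 4.80). After 36.8 °C during ED10 to ED13 MIR125B2 was 0 on 1 array (others 3.03 to 4.24) and MIR133C was 0 on another (others 1.62 to 3.00). In D35 controls MIR133A1 was 4.50 in replicate 29, against 6.22 to 7.01.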

How the results depend on the processing

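Of the alternative counts and median levels 23 moved beyond the range set for them. For 38.8 °C against 36.8 °C at ED10, where no microRNA probe set passed, 2 passed after quantile normalization and 1 without the dimmest 25% of probe sets. For 38.8 °C against 37.8 °C at ED13 the count of 1 became 0 with the run of titles as a term, 0 without the dimmest 25% (which removes MIR125B2), 0 with the compared groups alone, and 0 to 1 when leaving out 1 array, where only the fits without 38.8 °C replicate 29 or 37.8 °C replicate 39, 42 or 91 kept it. For 36.8 °C against 37.8 °C at ED13 the count was 6 (1.49%) with the run as a term, against 4.23% of all probe sets. For 38.8 °C against 36.8 °C at ED13 the count was 19 (4.73%) after quantile normalization, where 1118 of all 20706 probe sets were higher and 1138 lower. With the compared groups alone it was also 19 (4.73%), where 1088 of all were higher and 576 lower. With the run as a term it was 0. Without the dimmest 25% the median level was 7.44 in embryos and 6.03 at D35. The count in control embryos between days was 62 to 75 when leaving out 1 array, and MIRLET7A2 lost its call in 3 of 16 such fits.

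Signs turned with the run as a term: MIR1-2 (-0.12) and MIR15A (-0.0073) for 38.8 °C against 36.8 °C at ED13, MIR125B2 (-0.036) and MIR15B (-0.019) for the same contrast at ED10, and MIR125B2 (0.045) for 36.8 °C against 37.8 °C at ED10. Among named genes 650 values kept direction and side of the threshold, 40 lost and 5 gained a call. The cause was not tested. The second deposited table gives identical values. No paired analysis was possible because the numbers in the titles name single animals and no groups of an age share them. Low signal limits most members.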
